A study of Rattus norvegicus with 12 samples.

Results

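Endothelial nuclei of the rat liver were divided by their count of Lyve1, the hyaluronan receptor that marks liver sinusoidal endothelial cells (LSECs) and lymphatic endothelium. Among 12525 nuclei kept from the 4 single-nucleus RNA-seq (snRNA-seq) libraries, 434 (3.47%) were endothelial. A nucleus was kept with at least 1000 unique molecular identifiers (UMIs, each counting 1 captured RNA molecule) and at most 10% mitochondrial UMIs. It was called endothelial when 8 genes (Ptprb, Kdr, Fcgr2b, Bmp2, Stab2, Calcrl, Eng and Vwf) together held at least 4 UMIs and 0.2% of its UMIs, and when the mesenchymal genes Ecm1, Col3a1, Colec11 and Pth1r held fewer than 2. Of the 434 nuclei, 315 (72.6%) were Lyve1-positive, with 2 or more Lyve1 UMIs, 61 (14.1%) were Lyve1-zero, and 58 (13.4%) had 1 Lyve1 UMI and belonged to neither class. The whole series held 270029 barcodes and spots. Since the classes were defined by Lyve1 and the nuclei were chosen by the other 12 genes, all 13 are given as a description without a test.

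The nuclei came from healthy male rats, 2 of the Dark Agouti (DA) and 2 of the Lewis (LEW) strain, with no treatment or engineered allele named. Pieces of liver were snap-frozen, nuclei were released in a CHAPS detergent buffer with salts and Tris, and libraries were made with 10x Genomics 3′ version 3 chemistry. The methods give the rats' age as 16 to 18 weeks, and the design text gives 8 to 10 weeks for the livers that were digested into cells. Those livers, of 2 other DA and 2 other LEW rats, gave the total liver homogenate (TLH) cell libraries (collagenase digestion, 3′ version 2 chemistry) that are used below for comparison.

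The liver holds endothelium of several kinds. LSECs line the sinusoids, have open pores and no continuous basement membrane, and take up waste macromolecules from blood through scavenger receptors such as the stabilins and the mannose receptor, which deliver them to lysosomes. The endothelium of portal and central veins, arteries and lymphatics forms a closed lining. Von Willebrand factor (Vwf) is a marker of larger vessels, and in mouse liver Lyve1 is known to vary along the sinusoid between the portal tract and the central vein.

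The Lyve1-zero class was small in every rat and unequal between rats. It held 5 nuclei in DA-1, 11 in DA-2, 19 in LEW-1 and 26 in LEW-2, and the Lyve1-positive class held 81, 108, 54 and 72. Lyve1-zero nuclei were 5.32% of the endothelial nuclei of DA-1 (exact 95% binomial interval 1.75 to 12.0%), 8.27% of DA-2 (4.20 to 14.3%), 20.2% of LEW-1 (12.6 to 29.8%) and 23.0% of LEW-2 (15.6 to 31.9%). Both LEW shares lay above both DA shares. With 2 rats a strain this is not a tested difference, and the TLH cells chosen by the same genes did not show that order. There the Lyve1-zero share was 20.5% in DA-1, 8.33% in DA-2, 10.8% in LEW-1 and 16.8% in LEW-2. These intervals cover counting error only.

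**Figure D1:**
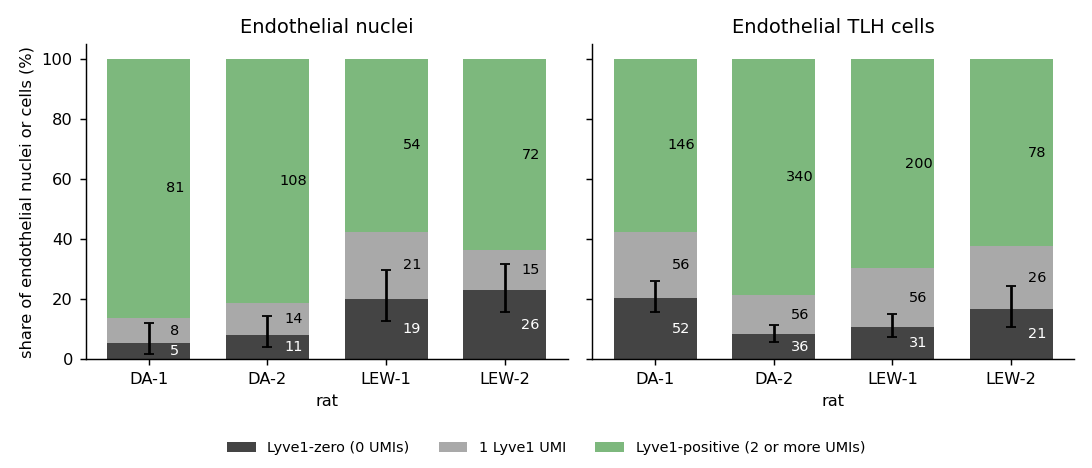
Share of endothelial nuclei (left) and of endothelial TLH cells (right) with 0, 1, or 2 or more Lyve1 UMIs in each library, as stacked bars in percent, with the number of nuclei or cells printed in each bar. Error bars are exact 95% binomial intervals of the Lyve1-zero share, and the same rat name stands for a different animal in each panel. The Lyve1-zero share of nuclei is 5.32% and 8.27% in the DA rats and 20.2% and 23.0% in the LEW rats.

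A missed molecule can make a nucleus Lyve1-zero, so depth was compared first. The median UMI count of a nucleus in DA-1, DA-2, LEW-1 and LEW-2 was 1714, 1082, 1603 and 1299.5 in the Lyve1-zero class and 1314, 1268, 1335 and 1237.5 in the Lyve1-positive class. The positive class was deeper in 1 of 4 rats, with a mean log2 ratio of -0.12 ± 0.27 (SD, n = 4, two-sided exact sign-flip permutation test p = 0.375, where 0.13 is, rounded, the smallest that 4 rats allow). In Lyve1-positive nuclei the median Lyve1 count was 7, 6, 3.5 and 3 UMIs in the same order of rats, so those of the LEW rats lay closer to the limit. In 9164 nuclei with no UMI of the 8 endothelial or the 4 mesenchymal genes, Lyve1 had a UMI in 139 (1.52%), at a median depth of 1582 UMIs. The 4 libraries held 8039397 to 15186970 UMIs and 4458 to 10552 barcodes each, and no barcode was shared between libraries among the 434 nuclei. Scrublet called 4 of the 5262 kept nuclei of LEW-1 and 18 to 34 in the other libraries, and no nucleus was removed for it.

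The genes used to choose the nuclei were themselves unequal between the classes. Summed, the 8 genes had a median of 5, 7, 8 and 9.5 UMIs per Lyve1-zero nucleus and 17, 18.5, 15.5 and 15 per Lyve1-positive nucleus in DA-1, DA-2, LEW-1 and LEW-2. The inhibitory Fc receptor Fcgr2b, an LSEC marker, had a UMI in 38 of 61 Lyve1-zero nuclei (62.3%) and in 289 of 315 Lyve1-positive nuclei (91.7%). Fcgr2b or the scavenger receptor Stab2, or both, had a UMI in 42 of 61 (68.9%) against 298 of 315 (94.6%), while 55 of the 58 nuclei with 1 Lyve1 UMI had at least 1 of them. Vwf had the opposite distribution. It had UMIs in 11 of 61 Lyve1-zero nuclei, 2 of 58 with 1 Lyve1 UMI and 2 of 315 Lyve1-positive nuclei (0.635%). Ptprb, the vascular endothelial phosphatase, was the most even of the 8, at 586, 640.3, 785 and 636 CPM in the Lyve1-zero class and 1044, 1015, 535 and 669 in the Lyve1-positive class. Pooled over rats, Kdr was at 1505 CPM in the Lyve1-zero and 3194 in the Lyve1-positive class, and Eng at 757 and 1663. Bmp2 was at 748 and 1854, and Calcrl at 167 and 383. Within rats Kdr, Eng and Bmp2 were higher in the positive class in 4 of 4, and Calcrl in 3 of 4. Here and below, counts are scaled to 1000000 UMIs of a class in 1 rat (CPM), and values run in the order DA-1, DA-2, LEW-1, LEW-2.

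At the limits of the classes, the 58 nuclei with exactly 2 Lyve1 UMIs had a median of 12 UMIs of the 8 genes, and the 58 with 1 had 10.5. Of 16 nuclei with exactly 4 UMIs of the 8 genes, just inside the limit, 7 were Lyve1-zero (43.8%), at a median depth of 1141 UMIs. Of 9 with 3 that also held 0.2% of UMIs, 6 were (66.7%), at a median depth of 1176. Without that condition 49 nuclei had 3, of which 31 were Lyve1-zero (63.3%), but their median depth was 2803.

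To ask which genes differ with Lyve1, UMIs were summed over each class of each rat and the 2 sums were compared within rat (edgeR quasi-likelihood test, Benjamini-Hochberg adjustment at 0.05 over all genes tested). Of 1213 tested genes outside the choice of the nuclei, 7 (0.577%) rose in Lyve1-positive nuclei and 0 (0%) fell. The 7 were the endocytic and lysosomal genes Mrc1, Ctsl and Arsb, the coreceptors Tgfbr3 and Nrp2, the ligand Tnfsf10 and the secreted or membrane-bound protein Islr. All 7 were higher in 4 of 4 rats, and their class ranges did not overlap. The filter on low counts could be passed in 1 class alone. Arsb and Islr, with few UMIs in the Lyve1-zero class, entered the test only through the positive class, so the filter itself favoured their direction. Over all 1213 genes, 171 (14.1%) were higher in 4 of 4 rats and 87 (7.17%) lower in 4 of 4, and the class ranges did not overlap for 66 (5.44%) in the higher and 21 (1.73%) in the lower direction. At an unadjusted p under 0.05, 81 genes were higher and 43 lower. DESeq2 called 9 higher and 2 lower, with Gjb1 among the latter. Of the 7, 5 were among its 9, and Arsb and Islr were given no adjusted p by it. The median log2 fold change of all genes was 0.00.

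Mrc1, the mannose receptor that clears glycoproteins from the sinusoid, stood at 352, 2561, 1036 and 1292 CPM in Lyve1-zero nuclei and at 3289, 3816, 3539 and 3065 in Lyve1-positive nuclei. It was 2.80-fold higher (log2 fold change 1.49 ± 0.32, SE of the fit, n = 4 rats, edgeR adjusted p = 0.00611). This SE, given below for other edgeR fold changes too, is derived from the test statistic and is not the spread between rats. For Mrc1 the SD of the 4 within-rat log2 differences was 1.14. The Lyve1-zero nuclei of DA-2 came nearest to the positive class. Ctsl, cathepsin L, a protease of the lysosome, stood at 820.2, 1120.4, 753 and 636 in the Lyve1-zero class and at 2143, 2405, 1835 and 1809 in the positive class. Its fold of 2.53 (log2 1.34 ± 0.31, edgeR adjusted p = 0.0127) was the smallest of the 7. The lysosomal gene with the larger fold was Arsb, arylsulfatase B, which removes sulfate from dermatan and chondroitin sulfate. Arsb had 0, 1, 1 and 5 UMIs in the Lyve1-zero class, or 0, 80.0, 31.4 and 103 CPM, and 67, 78, 37 and 35 in the positive class, or 522, 423, 404 and 316 CPM (log2 2.48 ± 0.51, edgeR adjusted p = 0.00439). Over the alternatives its log2 fold change ran from 2.08 to 3.45, the largest being without LEW-2.

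Tgfbr3, betaglycan, the coreceptor that presents TGF-β and inhibin, had the most even values. It lay at 234, 240.1, 188 and 205 CPM in Lyve1-zero nuclei and at 647, 689, 655 and 651 in Lyve1-positive nuclei, a 3.14-fold difference (log2 1.65 ± 0.38, edgeR adjusted p = 0.0119). Nrp2, neuropilin 2, a coreceptor for VEGF-C and class 3 semaphorins, went from 117, 240.1, 220 and 267 to 421, 434, 644 and 705. Its log2 fold change of 1.39 ± 0.37 was closest to the threshold (edgeR adjusted p = 0.0495), and in the positive class both LEW rats lay above both DA rats. Tnfsf10, the death ligand TRAIL, stood at 234, 240.1, 94.2 and 164 against 429, 505, 426 and 615 (log2 1.66 ± 0.40, edgeR adjusted p = 0.0171).

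Islr, an immunoglobulin-domain protein with leucine-rich repeats, is known from mesenchymal stroma. It had 0, 0, 3 and 1 UMIs in the Lyve1-zero class and 27, 53, 25 and 26 in the positive class, or 0, 0, 94.2 and 20.5 against 210.4, 288, 273 and 235 CPM (log2 2.66 ± 0.67, edgeR adjusted p = 0.0267). Because 4 UMIs carry its Lyve1-zero level, the size of this fold rests on few molecules. Summed markers of stellate and other mesenchymal cells held 0.0144 to 0.0469% of UMIs in the Lyve1-zero class and 0.0315 to 0.0371% in the positive class. Pdgfra, Acta2, Myh11, Lama2 and Col14a1 were at 0 in both, and Tagln, Col1a1, Ngfr and Pdgfrb at 0 in the Lyve1-zero class alone. Within rats the summed share was higher in the positive class in 3 of 4 (log2 differences of -0.51, 0.67, 0.34 and 1.22), as Islr was in 4 of 4. Hgf, the only member of this list tested, was also higher in 4 of 4 (log2 1.19, edgeR adjusted p = 0.42). The 4 mesenchymal genes limited in choosing the nuclei differed in direction. Ecm1 had UMIs in 0 of 61 Lyve1-zero and 18 of 315 Lyve1-positive nuclei, and Pth1r in 0 and 3. Col3a1 had UMIs in 5 (8.20%) and 3 (0.952%), and Colec11 in 2 (3.28%) and 4 (1.27%). Their summed share was higher in the positive class in both DA rats, at 0 against 0.000779% of UMIs in DA-1 (1 UMI) and 0 against 0.0076% in DA-2. It was lower in both LEW rats, at 0.00628 against 0.00328% in LEW-1 and 0.0103 against 0.00904% in LEW-2. The part of mesenchymal RNA in the Islr difference was not tested.

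**Figure D2:**
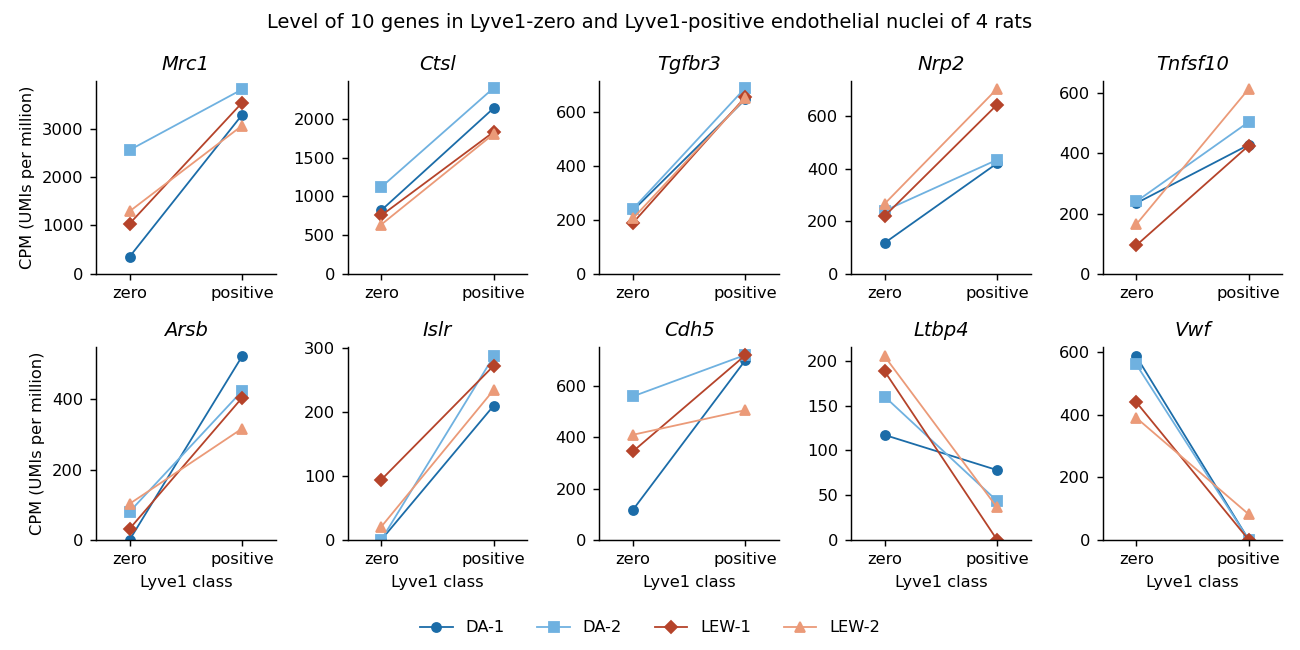
Level of 10 genes in Lyve1-zero and Lyve1-positive endothelial nuclei, in CPM of the class on linear axes from 0, with 1 line per rat. The first 7 panels are the genes that rose in Lyve1-positive nuclei, and in each every positive value lies above every zero value. Cdh5 did not pass the test, Ltbp4 had too few UMIs to be tested, and Vwf was used to choose the nuclei.

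With every endothelial nucleus thinned to 1000 UMIs all 7 genes were among 19 called higher, and with the classes matched on UMI count within rat Mrc1, Nrp2 and Ctsl were called while the other 4 had too few UMIs to be tested. The calls depended on single libraries, limits and scaling. Without LEW-1, 0 genes were higher, without LEW-2 only Arsb and Mrc1 were, without DA-2 the number was 15, without DA-1 or DA-2 4 genes were lower, and with at least 6 UMIs of the 8 genes or at most 5% mitochondrial UMIs 0 genes were called in either direction. In these settings without a call the folds of the 7 genes lay at log2 1.32 to 3.96 without LEW-1, 1.23 to 2.32 with at least 6 UMIs and 1.32 to 2.72 at the lower mitochondrial limit, against 1.34 to 2.66. With UMIs scaled to the 19 pan-endothelial genes analysed, an alternative added after the data had been seen that moved the median of all genes to -0.41 (log2), 0 genes were higher and 1, Alb, was lower. There the folds of the 7 genes were smaller, at log2 0.93 to 2.28.

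Other genes were read through lists for cell types and pathways. Some listed genes were not matched in the gene list and are not analysed here. These were 1 each of the LSEC, pan-endothelial, larger-vessel, hepatocyte, stellate, cholangiocyte and mesothelial lists and 2 each of the basement membrane and the Kupffer and myeloid lists. Of the 19 LSEC genes matched, 14 had enough UMIs to be tested, and the median of their log2 fold changes was 0.92 beside 0.00 for all genes. All 14 were above 0, as were 607 of all 1213 genes, but only Mrc1 and Ctsl passed the test, beside 7 of 1213, and a gene could enter the test through the class in which it was higher. Oit3, an LSEC-enriched secreted protein, had 0, 0, 4 and 3 UMIs in the Lyve1-zero class and 35, 53, 19 and 30 in the positive class (log2 1.90, edgeR adjusted p = 0.101). Fam167b, a further LSEC marker, was at log2 1.32 (edgeR adjusted p = 0.0772), the stabilin Stab1 at 1.11 (0.368), the lymphatic and sinusoidal VEGF receptor Flt4 at 0.91 (0.368), the transcription factor Maf at 0.80 (0.392) and the water channel Aqp1 at 0.65 (0.474). Summed without any filter, the LSEC list held 0.457, 0.944, 0.487 and 0.533% of UMIs in the Lyve1-zero class and 1.28, 1.46, 1.09 and 1.03% in the positive class. The positive share was higher in 4 of 4 rats without overlap (mean log2 difference 1.05 ± 0.35, SD, two-sided exact sign-flip permutation p = 0.13, the smallest possible).

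Of 19 genes shared by all endothelium 13 were tested, 0 were called, and the median of their log2 fold changes was 0.37. This median and that of the LSEC genes were not tested against each other. The list does not hold Kdr, Eng, Calcrl or Ptprb, which were used to choose the nuclei and whose levels are given above. VE-cadherin (Cdh5), the adhesion molecule of endothelial junctions, stood at 117, 560.2, 345 and 410.1 CPM in Lyve1-zero nuclei and at 701, 722, 721 and 506 in Lyve1-positive nuclei. The classes overlapped, although all 4 rats had more in the positive class (log2 0.78 ± 0.35, edgeR adjusted p = 0.392). The angiopoietin receptor Tek and the sialomucin Emcn lay at -0.20 each, and the lectin-like receptor Cd93 at 1.12 (0.16). Their summed share was higher in the positive class in 3 of 4 rats, DA-2 being the exception (mean log2 difference 0.39 ± 0.49, exact sign-flip permutation p = 0.25).

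Pathway lists gave few testable genes. For the uptake of macromolecules 10 of 18 genes were tested with a median of 0.23, and the called members were again Mrc1 and Ctsl, while the lysosomal membrane protein Lamp1 was at log2 0.39 (edgeR adjusted p = 0.71) and the endocytic receptor Lrp1 at -0.13 (0.96). In the Notch and VEGF list 5 of 15 were tested (median 0.62) and Nrp2 was called. Its neighbour Nrp1, which binds VEGF-A, was at 0.62 (0.63). In the BMP and TGF-β list 4 of 18 were tested (median 0.48) and Tgfbr3 was called, with the BMP target Id3 at 0.56 (0.59) and the inhibitor Smad7 at -0.34 (0.80). Of 12 basement membrane genes 4 were tested with a median of -0.25 and 0 calls. Fibronectin (Fn1) was at -0.56 (0.50) and Col18a1 at -0.44 (0.65), and the summed list was lower in Lyve1-positive nuclei in 4 of 4 rats (mean log2 difference -0.44 ± 0.32, exact sign-flip permutation p = 0.13). The list of hepatocyte genes was lower in the same 4 rats, and both genes were higher still in the 9164 nuclei without UMIs of the genes used in the choice. Pooled over rats, Fn1 was at 2255 CPM there, 1603 in Lyve1-zero and 1047 in Lyve1-positive nuclei, and Col18a1 at 775, 492 and 369. These pools are not paired within rat and mix the rats unequally. LEW-1 gave 4040 of the 9164 nuclei, and LEW rats gave 45 of 61 Lyve1-zero and 126 of 315 Lyve1-positive nuclei. The part of RNA from other cells in the lower share of the basement membrane list was not tested.

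Of the genes that vary along the sinusoid in mouse, those tested did not pass. Of 10 portal-side genes 4 were tested (median 0.28) and of 9 central-side genes 2 (median 0.32), with 0 calls. Efnb2, an arterial and portal-side ephrin, had 0, 2, 3 and 5 UMIs in the Lyve1-zero class and 32, 47, 8 and 30 in the positive class (log2 1.05, edgeR adjusted p = 0.50). The Notch ligand Dll4 was at 469, 720.3, 219.7 and 287 CPM in Lyve1-zero nuclei and 413, 494, 164 and 172 in Lyve1-positive nuclei, below in each rat but overlapping and uncalled (log2 -0.49, edgeR adjusted p = 0.648). The central-vein ligand Wnt2 had 0, 1, 3 and 0 against 5, 10, 1 and 4 UMIs, and the LSEC lectin Clec4g 0, 0, 1 and 4 against 4, 11, 3 and 1, both too few to test. The lymphatic regulator Prox1 had 1, 0, 4 and 3 against 8, 30, 9 and 7 UMIs, and Ccl21, Pdpn and Mmrn1, which define lymphatic endothelium, were at 0 in both classes.

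**Figure D3:**
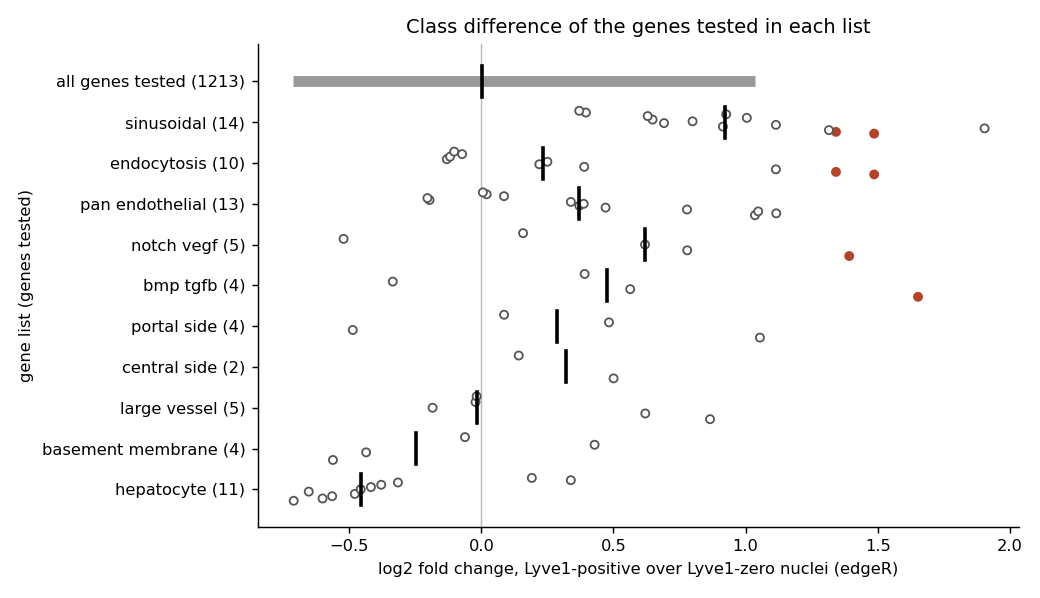
Log2 fold change (Lyve1-positive over Lyve1-zero nuclei, edgeR) of each tested gene in 10 lists, with circles for genes, filled circles for those with adjusted p under 0.05 and black bars for medians; the grey bar spans the middle 90% of all 1213 genes, from -0.71 to 1.04. The median of the sinusoidal list is 0.92 and that of the hepatocyte list -0.46.

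Hepatocyte RNA was unequal between the classes. The summed hepatocyte list took 4.73, 5.77, 6.88 and 6.37% of UMIs in Lyve1-zero nuclei and 4.52, 2.60, 5.30 and 4.58% in Lyve1-positive nuclei, lower in the positive class in 4 of 4 rats (mean log2 difference -0.52 ± 0.46, exact sign-flip permutation p = 0.13). All 11 genes matched were tested, 9 lay below 0, 0 were called and the median was -0.46. Alb was at -0.56 (edgeR adjusted p = 0.44) and Apoa1 at -0.71 (0.37). In 6 of 22 alternatives members of the list were called lower, and in none was one called higher. Alb was lower in all 6, which were without DA-1, with the nuclei chosen on Ptprb, Kdr, Calcrl and Eng, with UMIs scaled to the pan-endothelial list, with nuclei holding markers of other cell types left out (with Fgb), and with nuclei thinned and chosen again by edgeR or DESeq2 (with Apoa1, Cps1, Fgb and Tf). In these 6, in the same order, 1 of 11, 1 of 10, 1 of 11, 2 of 10, 5 of 9 and 5 of 9 members tested were lower, beside 0.309%, 0.417%, 0.0824%, 0.99%, 13.4% and 7.95% of all genes tested. Its part in the differences above was not tested. Kupffer and myeloid markers took 0 to 0.0628% in the Lyve1-zero and 0.00546 to 0.0499% in the positive class. Within rats they were at 0 against 41 UMIs in DA-1, 0 against 92 in DA-2, 20 against 5 in LEW-1 and 7 against 39 in LEW-2, so their share was higher in the positive class in 3 of 4 rats, where Mrc1 and Ctsl were higher in 4 of 4. Their part in those differences was not tested. Cholangiocyte markers took 0 to 0.0082% in the Lyve1-zero and 0 to 0.00546% in the positive class, with Krt19, Krt7, Sox9 and Spp1 at 0 in both, and lymphoid markers 0 to 0.0157% and 0.00109 to 0.0127%, with Cd3e at 0 in both. With every nucleus left out that held 2 or more UMIs of stellate, cholangiocyte, mesothelial, myeloid or lymphoid markers, 16 genes were higher, all 7 above among them, and 7 were lower.

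The level of the called genes was also laid out against the number of Lyve1 UMIs, in 61 nuclei with 0, 58 with 1, 153 with 2 to 4 and 162 with 5 or more. The median depths of these groups were 1256, 1222.5, 1242 and 1311.5 UMIs. The groups differed in strain, with LEW nuclei making up 45 of 61, 36 of 58, 91 of 153 and 35 of 162, so levels are given as means of the 4 rats. Mrc1 stood at 1310.0 ± 924 (SD, n = 4 rats), 1889.9 ± 592, 2659 ± 497 and 4007 ± 393 CPM over the groups, Tgfbr3 at 217 ± 24.5, 309.9 ± 153, 520.3 ± 180 and 721 ± 140, and Arsb at 53.5 ± 46.4, 268 ± 124, 330.2 ± 71.0 and 511 ± 54.7. Within rats, Arsb went from 0, 80.0, 31.4 and 103 at 0 Lyve1 UMIs to 454, 201, 213 and 205 at 1, to 406, 271, 375 and 269 at 2 to 4 and to 578, 502, 445 and 517 at 5 or more.

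The step between 2 to 4 and 5 or more Lyve1 UMIs, within the positive class, was seen in every rat for Mrc1, from 2056, 2467, 3168 and 2945 to 3885, 4514, 4058 and 3572. Islr had its larger step there, at 28.7, 28.1, 129 and 355 over the 4 groups, with 23.9, 63.7, 225 and 202 per rat at 2 to 4 UMIs and 301, 404, 340.3 and 376 at 5 or more. Tgfbr3 did not keep this order in LEW-2, where it was 683 at 2 to 4 and 517 at 5 or more. Nuclei with 1 Lyve1 UMI were not near the same class for every gene. Ctsl in them (1767 ± 739 CPM) was near the group with 2 to 4 UMIs (1571 ± 98.7), whereas Nrp2 (265 ± 136) was near the Lyve1-zero nuclei (211 ± 65.4). Vwf was at 586, 560.2, 439 and 389.6 CPM at 0 Lyve1 UMIs and had UMIs in 1 rat in each of the next groups (149 in LEW-1 at 1 UMI, 101 in LEW-2 at 2 to 4) and in none at 5 or more. Ltbp4, a latent TGF-β binding protein of larger vessels, stood at 168 ± 38.4, 89.2 ± 37.1, 64.2 ± 86.1 and 29.9 ± 23.2, but in DA-1 it was 191 at 2 to 4 UMIs against 117 at 0. These values share the gene that formed the groups and are a description.

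**Figure D4:**
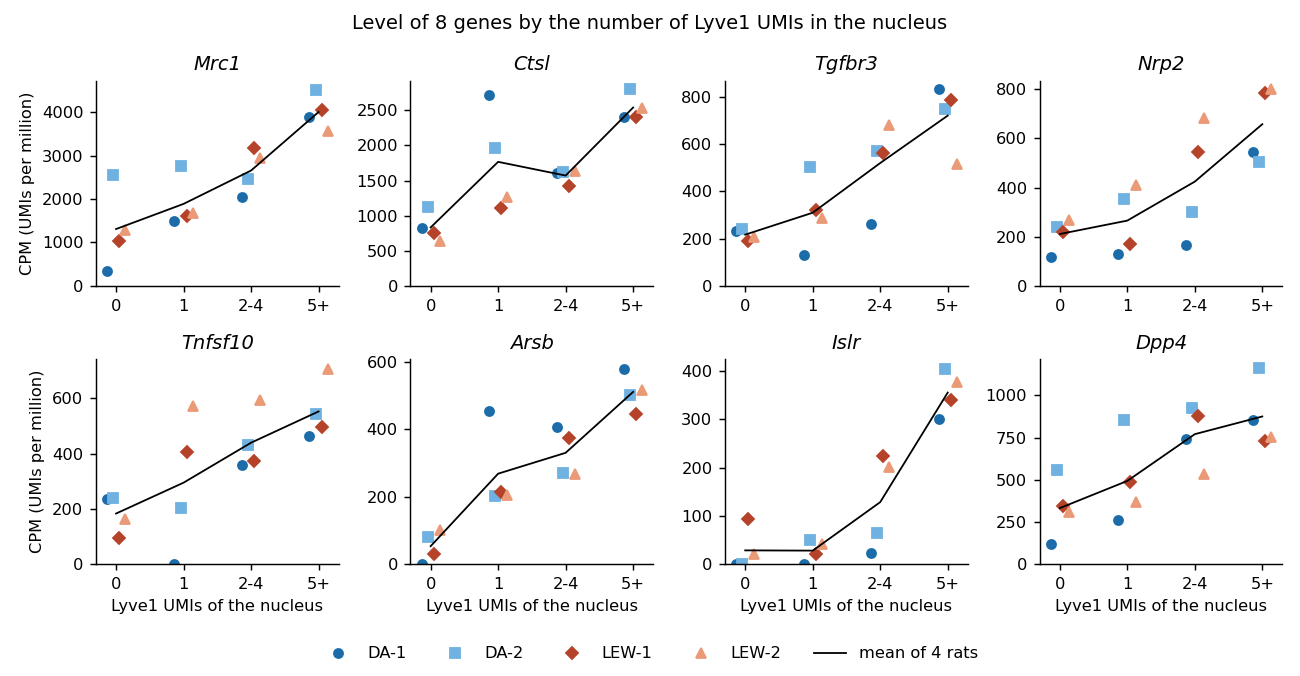
Level of 8 genes (CPM, linear axes from 0) in endothelial nuclei with 0, 1, 2 to 4, and 5 or more Lyve1 UMIs, with 1 symbol per rat and a line through the means of the 4 rats. Mean Mrc1 goes from 1310.0 at 0 to 4007 at 5 or more, and Dpp4, a membrane peptidase chosen after its values were seen, from 333 to 876.

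Genes with a higher level in Lyve1-zero nuclei were also described where they were too sparse to be tested. Ltbp4 had 1, 2, 6 and 10 UMIs in the Lyve1-zero class and 10, 8, 0 and 4 in the much larger positive class, which is 117, 160.1, 188 and 205 against 77.9, 43.4, 0 and 36.2 CPM. The classes did not overlap, but the Lyve1-zero value of DA-1 rests on 1 UMI. Among the 1213 tested genes, which do not include Ltbp4, 21 (1.73%) had no overlap in this direction. Ltbp4 had a UMI in 10 of 61 Lyve1-zero nuclei (16.4%), 9 of 58 with 1 Lyve1 UMI (15.5%) and 19 of 315 Lyve1-positive nuclei (6.03%). It was below the filter on low counts here. It was called lower when the positive class began at 1 Lyve1 UMI, but not where no filter on low counts was used. Igfbp3, a carrier of insulin-like growth factors, and elastin (Eln), an extracellular fibre protein of large vessels, were picked after their values had been seen. Igfbp3 had 1, 2, 22 and 15 against 1, 1, 1 and 4 UMIs, and Eln 1, 1, 6 and 8 against 0, 0, 0 and 1. Both were called lower where no filter on low counts was used, and Igfbp3 also in 3 other alternatives.

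Of 23 genes of larger vessels 5 were tested, 0 were called and the median was -0.02. The clusterin gene Clu was at log2 -0.18, the arterial regulator Sox17 at 0.62 and the venous receptor Ephb4 at 0.87, none past the test (edgeR adjusted p = 0.92, 0.69 and 0.37). Clu was at 858 CPM in the 9164 nuclei without UMIs of the genes used in the choice, 541 in Lyve1-zero and 426 in Lyve1-positive nuclei, pooled over rats that the groups held in unequal numbers. Cd34, Hey1, Bmx, Cytl1 and Edn1 of this list had 0 UMIs in either class, where up to 3 UMIs would be compatible with a count of 0. Cd34 and Bmx also had 0 UMIs in the 58 nuclei with 1 Lyve1 UMI and in the 9164 nuclei, so their zeros say nothing about the classes.

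The Lyve1-zero nuclei were split by Vwf, Fcgr2b and Stab2. Vwf was present in 11 of them (1, 2, 5 and 3 by rat), with a median of 3 Vwf UMIs and up to 12. A further 40 (65.6%; 3, 7, 12 and 18 by rat) had no Vwf but a UMI of Fcgr2b or Stab2, and 10 (16.4%; 1, 2, 2 and 5) had none of these genes. The median depths were 1474, 1229.5 and 1207.5 UMIs, and 2 of the 11 Vwf nuclei had Fcgr2b or Stab2. All 3 genes also counted toward the choice of the nuclei, in which a nucleus low in one of the 8 genes had to hold UMIs of the others, so the choice itself favours such separation.

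The list of larger-vessel genes, which does not hold Vwf, had 99 UMIs in the Vwf nuclei, 88 in the 40 with Fcgr2b or Stab2 and 20 in the remaining 10. That is 6124 CPM (exact 95% Poisson interval 4978 to 7456), 1214 (973 to 1495) and 1541 (941 to 2380). The Vwf nuclei held 13 of the 19 Ltbp4 UMIs of the class, 17 of the 22 UMIs of Rspo3 (R-spondin 3, the central-vein amplifier of Wnt signals), all 16 of Eln and 35 of the 40 of Igfbp3. Rspo3 and Igfbp3 are not in that list. The arterial and portal-side ephrin Efnb2 had 0 UMIs in the Vwf nuclei, 10 in the 40 nuclei and 0 in the 10. Dll4, also of the portal-side list, was at 495, 276 and 462 CPM in the same order (8, 20 and 6 UMIs). The summed portal-side list was at 1856 CPM (1252 to 2649), 1434 (1172 to 1738) and 1002 (533 to 1713). The summed central-side list, which holds Rspo3, was at 1732 (1151 to 2503), 593 (429 to 799) and 385 (125 to 899). The Rspo3 UMIs came from 3 nuclei and those of Igfbp3 from 7. Igfbp3 was at 2165 CPM (1508 to 3011) in Vwf nuclei and at 27.6 (3.34 to 99.6) in the 40 nuclei with Fcgr2b or Stab2.

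The summed LSEC list was at 4392 CPM (3430 to 5540) in the Vwf nuclei, 6040 (5488 to 6633) in the 40 nuclei and 4855 (3731 to 6212) in the 10, and its members differed in direction. Mrc1 was at 371 CPM (136 to 808) in the Vwf nuclei, at 1503 (1234 to 1813) in the 40 nuclei and at 1233 (705 to 2002) in the remaining 10. All 3 lay under the 3474 of the pooled Lyve1-positive class. The VEGF receptor Kdr was at 371 (136 to 808), 1779 (1485 to 2114) and 1387 (822 to 2192), while Aqp1, also of the LSEC list, was at 1485 (951 to 2209), 290 (179 to 443) and 308 (84.0 to 789). The hepatocyte list took 70461, 57215 and 87623 CPM in the same order. The split was made on the measured values of 3 genes, so these are values of 11, 40 and 10 nuclei, with intervals for counting error only and no test.

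**Figure D5:**
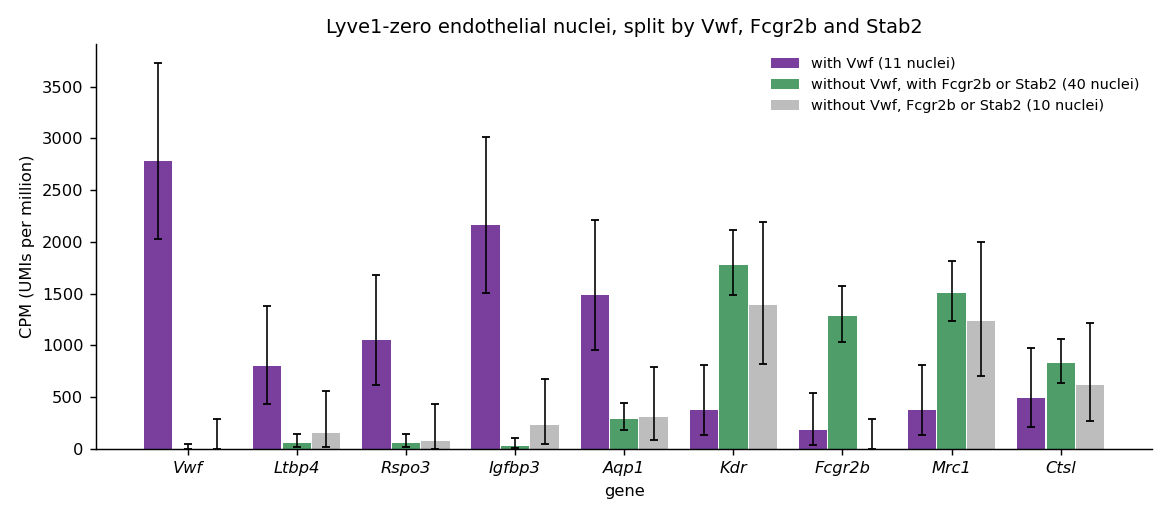
CPM of 9 genes in the 61 Lyve1-zero nuclei, split into those with Vwf, those without Vwf but with Fcgr2b or Stab2, and those with none of these genes; bars are pooled over 4 rats and error bars are exact 95% Poisson intervals of the counts. Igfbp3 reads 2165 in Vwf nuclei and 27.6 in the middle group, while Mrc1 reads 371 and 1503. Vwf and Fcgr2b define the groups.

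The same contrast was then run in TLH cells, which came from other rats and a different chemistry and played no part in choosing the nuclear classes. Their matrices carried no gene names, so each TLH value below assumes that their rows follow the order of the nuclear gene list, which has the same number of rows. The same limits on the 12 genes and on Lyve1, with higher limits on UMIs and mitochondrial share per cell, gave 1098 endothelial cells, of which 140 were Lyve1-zero and 764 Lyve1-positive, at median depths of 1652 to 2275 and 1650 to 2328 UMIs. Of 1733 genes tested outside the choice, 4 rose in Lyve1-positive cells (0.231%) and 5 fell (0.289%). Ctsl and Mrc1 were among the 4. Ctsl stood at 1483, 1560, 2515 and 1933 CPM in Lyve1-zero cells and at 1906, 2230, 2846 and 2631 in Lyve1-positive cells (log2 0.34 ± 0.07, SE of the fit, n = 4 rats, edgeR adjusted p = 0.00155). Mrc1 stood at 309.9, 363, 470 and 391 against 412, 532, 707 and 659 (log2 0.55 ± 0.14, edgeR adjusted p = 0.0289). Both were higher in 4 of 4 rats, and the ranges of the classes overlapped for both. Over all 1733 genes, 112 (6.46%) were higher in 4 of 4 rats and 142 (8.19%) lower, and the ranges did not overlap for 22 (1.27%) in the higher and 19 (1.1%) in the lower direction.

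The other called genes were Sparc, a matricellular protein of LSECs (log2 0.57 ± 0.15, edgeR adjusted p = 0.030), and the mitochondrial carrier Slc25a4 (1.56 ± 0.40, 0.0229), which rose, and the complement gene C3, the hepatocyte genes Alb and Cps1 and the mitochondrially encoded Mt-co1 and Mt-co2, which fell by 0.17 to 0.39 on the log2 scale. In the same cells Tgfbr3 was at 0.54 (edgeR adjusted p = 0.644), Tnfsf10 at 0.41 (0.861), Nrp2 at 0.32 (0.891) and Arsb at 0.09 (0.975), all without a call. Islr was too sparse to test, with 3, 1, 3 and 0 UMIs in Lyve1-zero and 10, 34, 42 and 21 in Lyve1-positive cells. Vwf was rare in TLH cells, with 0, 4, 1 and 0 against 0, 6, 1 and 0 UMIs. The TLH calls rest on the pairing within rat, since without it 0 genes were called, and DESeq2 called 0 higher and 1 lower. Without DA-2, 1 other gene was higher and neither Ctsl nor Mrc1 was called, and without LEW-1 or LEW-2 Ctsl was called and Mrc1 was not. The folds of nuclei and TLH cells were not tested against each other.

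Whether the Lyve1 difference itself varied by strain was tested as an interaction of class and strain in the nuclei. No gene passed the edgeR test in either direction (0 of 1213, 0%), and DESeq2 called 0. At an unadjusted edgeR p under 0.05, the signed log2 difference (positive minus zero) was higher in LEW for 1 gene and higher in DA for 24. A smaller fall counts as higher here. The test rests on 2 rats in each strain, with 5 and 11 Lyve1-zero nuclei in the DA rats.

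The start regions of Lyve1, which defines the classes, and of Ctsl and Mrc1, the genes that rose in both nuclei and TLH cells, are shown from RefSeq on the GRCr8 assembly, from 250 bases before to 50 bases after the start, read along the gene. Capitals mark AGGAAG or its reverse complement CTTCCT, a core bound by ETS factors, the family of the endothelial regulators Erg and Fli1. The regions are chr1:174410928-174411227 on the minus strand for Lyve1, chr17:769854-770153 on the plus strand for Ctsl and chr17:82157475-82157774 on the plus strand for Mrc1.
Lyve1: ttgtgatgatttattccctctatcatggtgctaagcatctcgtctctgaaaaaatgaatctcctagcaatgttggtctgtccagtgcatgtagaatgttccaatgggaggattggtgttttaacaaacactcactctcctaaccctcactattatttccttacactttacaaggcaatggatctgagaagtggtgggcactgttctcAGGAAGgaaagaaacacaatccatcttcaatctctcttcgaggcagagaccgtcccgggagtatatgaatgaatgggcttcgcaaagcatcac
Ctsl: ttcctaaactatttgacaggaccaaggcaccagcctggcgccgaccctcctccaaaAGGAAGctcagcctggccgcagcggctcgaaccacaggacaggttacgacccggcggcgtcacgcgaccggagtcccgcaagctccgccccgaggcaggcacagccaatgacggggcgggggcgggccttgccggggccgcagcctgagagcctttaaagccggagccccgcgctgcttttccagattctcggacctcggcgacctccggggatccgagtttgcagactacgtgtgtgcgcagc
Mrc1: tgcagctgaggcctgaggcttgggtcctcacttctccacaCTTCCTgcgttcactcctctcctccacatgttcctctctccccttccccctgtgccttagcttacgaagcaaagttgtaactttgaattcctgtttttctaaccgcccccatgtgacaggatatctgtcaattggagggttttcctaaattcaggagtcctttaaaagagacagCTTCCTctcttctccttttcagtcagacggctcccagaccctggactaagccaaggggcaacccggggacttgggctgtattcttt
The hexamer occurred in 3 of the 7 promoters found for Lyve1 and the called genes (42.9%; those of Tnfsf10, Islr, Nrp2 and Tgfbr3 had none) and in 34.5% of all 33469 promoters of that length. It was 1 of 9 motifs searched on both strands. The GATA core AGATAA was in 0 of 7 and in 11.6% of all, CAGGAAG, which has AGGAAG inside it, in 2 and 12.5%, ACCGGAAG in 0 and 2.49%, TGCTGAC in 1 and 4.44%, TGAGTCA in 0 and 4.63%, TGTGGT in 1 and 17.3%, GTGGGAA in 0 and 6.29%, and AAACA in 4 and 51.9%. A match describes letters only.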

How the data were processed

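The authors aligned snRNA-seq and TLH reads with Cell Ranger 3.1.0 and deposited a matrix of unnormalized UMI counts for each library. The TLH matrices as used here hold no gene names, which were taken by row position from the nuclear gene list of 32883 entries. That order is an assumption. TLH cells were kept at 1500 (DA-1) or 2000 UMIs and at most 30, 20, 40 and 40% mitochondrial UMIs. The nuclei, gene lists and tests were chosen with earlier results of these data known, and the named genes were the called ones, at most 10 a direction, and a fixed set of endothelial markers. Counts were summed per rat and class, filtered with filterByExpr, TMM-scaled and tested with edgeR 4.0.16 (R 4.3.3) with the rat as a block, since both sums come from the same animal. DESeq2 1.42.0, other scalings, filters, depths, gates and class limits were alternatives. Checked on simulated nuclear sums, the edgeR steps recovered 8.00% of genes changed by a log2 fold of 1, 89.8% at 2 and 100% at 3, so in that setting smaller differences were mostly missed. For TLH cells it was 97.4% at 2. The simulated counts had no rat effect and a fixed dispersion (variance beyond counting error). That dispersion was above those fitted to the data, 0.0551 in nuclei and 0.00183 in TLH cells. The share missed in the real sums was not measured.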

Additional observations from a re-analysis of the deposited data

Results flagged for a closer look

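Of 12 genes and 17 gene lists whose log2 differences between the classes were compared over the 4 rats, 1 had a rat far from the others. For the portal-side list the difference (Lyve1-positive minus Lyve1-zero nuclei) was -0.38 in DA-2, where the list held 0.272% of UMIs in Lyve1-zero and 0.212% in Lyve1-positive nuclei. It was 0.06 in DA-1, 0.02 in LEW-1 and -0.01 in LEW-2. Chance alone sets apart about 1 in 20 such groups of 4.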

How the results depend on the processing

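The 7 genes were above 0 in every alternative in which they could be tested (21 or 22 each), but their number was not stable. Against 7 higher and 0 lower, the numbers of genes higher and lower were 9 and 2 with DESeq2, 5 and 0 with RLE factors, 7 and 0 with library totals, 5 and 2 with no filter on low counts (a setting that moved the median of all genes to 0.70), 5 and 2 with a Lyve1 limit of 1, 16 and 4 with a limit of 3, 4 and 0 without the highest Scrublet scores, 5 and 3 with the gate on Ptprb, Kdr, Calcrl and Eng, 16 and 7 with other cell types left out, 0 and 0 with a gate of 6 UMIs and 0 and 0 at no more than 5% mitochondrial UMIs. Nuclei thinned to 1000 UMIs gave 19 and 4, and 61 and 64 when the classes were also chosen again, among 478 genes tested. Classes matched on UMI count gave 3 and 1 among 262 genes tested. The cause of these changes was not tested.

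The settings chosen after the data had been seen were scaling to the pan-endothelial list (0 and 1), the LEW rats alone (2 and 1) and DESeq2 on nuclei thinned and chosen again (28 and 38). Without the replicate block for the rat, 2 genes were higher, Arsb and Tgfbr3, and 0 lower. Leaving out 1 rat gave 0 to 15 higher and 0 to 4 lower. It was 0 higher without LEW-1, 2 without LEW-2 and 15 without DA-2, and 4 lower without DA-1 or DA-2.

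In TLH cells, against 4 higher and 5 lower, there were 0 and 1 with DESeq2, 0 and 0 with no replicate block, 2 and 3 with a Lyve1 limit of 1, 2 and 3 with classes matched on UMI count, 19 and 0 with no filter, and 1 to 4 and 2 to 4 with 1 rat left out, lowest without DA-2 (1 higher), LEW-1 (2 lower) or LEW-2 (1 higher, 2 lower). The strain interaction gave 2 genes with a higher signed difference in LEW and 1 with a higher one in DA only with matched classes. Dll4 turned to 0.023 with no filter, to 0.10 in thinned and newly chosen nuclei, and to 0.12 there with DESeq2, none past the test.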

Other observations

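Several genes lay just short of the threshold and were picked after their values had been seen. Dpp4, Mfge8 and Ccdc80 were among those that DESeq2 called higher in Lyve1-positive nuclei. Dpp4, a membrane peptidase, stood at 117, 560.2, 345 and 308 CPM in the Lyve1-zero class and at 818, 1080.2, 819 and 579 in the positive class (log2 1.21, edgeR adjusted p = 0.0772). The phosphatidylserine-binding protein Mfge8 was at 234, 560.2, 345 and 328 against 842, 934, 1005 and 642 (log2 1.20, edgeR adjusted p = 0.0772). Neither pair of ranges overlapped. The extracellular protein Ccdc80 was at 234, 720.3, 188 and 103 against 748, 999, 459 and 524, with the DA-2 Lyve1-zero value above both LEW positive values (log2 1.38, edgeR adjusted p = 0.0618).

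In the other direction, the nuclear cytokine Il33 was at 234, 480.2, 251 and 164 CPM in Lyve1-zero nuclei and at 93.5, 130.3, 65.5 and 45.2 in Lyve1-positive nuclei, without overlap (log2 -1.76, edgeR adjusted p = 0.0779). In the 11 Lyve1-zero nuclei with Vwf it had 14 of its 24 UMIs. The hepatocyte connexin Gjb1 was at 820.2, 1681, 942 and 779 against 701, 478, 502 and 398 (log2 -1.01, edgeR adjusted p = 0.102) without overlap between the classes. It was lower by DESeq2, and the hepatocyte list moved the same way in 4 of 4 rats.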
